A study of Mus musculus with 7 samples.

Results

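The neurotensin and galanin systems were followed here through 8 genes, the ligand genes Nts and Gal and the receptor genes Ntsr1, Ntsr2, Sort1, Galr1, Galr2 and Galr3, out of 23337 gene symbols in the count table. The set was chosen by counts of these same libraries, in which Ntsr1, Gal and Nts had far fewer counts in the libraries labelled mutant, and the others are their partner receptors. The difference between the groups is therefore a description for these 8 genes, and a model's calls on them are no independent evidence of it. Poly(A) RNA of embryonic day 12.5 mouse left ventricles was sequenced from 2 Tbx5flox/flox embryos, the libraries labelled mutant, and from 5 Tbx5+/+ embryos, the controls. Both groups carried the allele Gt(ROSA)26Sortm1(cre/ERT2)Tyj, which supplies CreERT2, a recombinase that tamoxifen switches on, and both had been exposed to tamoxifen given to the mother the day before collection. CreERT2 was expressed from the Rosa26 locus, which is active in most cell types, so the design did not limit recombination to heart muscle. In which cells recombination took place was not measured here. Tbx5 codes for a T-box factor that regulates transcription in the embryonic heart.

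Neurotensin is a short peptide cut from the precursor that Nts encodes and is best known from brain and gut. Its receptor NTSR1 couples mainly to Gq, the G protein that drives phospholipase C and calcium release. NTSR2 is a second G protein-coupled receptor for it, and sortilin, encoded by Sort1, is a sorting receptor that also binds many other ligands. Galanin, cut from the Gal precursor, acts on GALR1 and GALR3, which couple to Gi and lower cyclic AMP, and on GALR2, which couples mainly to Gq. In adult mammals galanin is found in cardiac sympathetic nerves, where it reduces transmitter release from the vagus.

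Library totals were 20268208 and 22680280 counts in the libraries labelled mutant and 20385656 to 24440806 in the controls. Tbx5 had 1894 and 2602 counts in the libraries labelled mutant and 1297 to 2165 in the controls, so it was not lower. Such counts sum all exons, the floxed ones and the rest, and do not check the deletion, so the genotypes rest on the labels. The 15 cardiomyocyte markers listed here, such as Tnnt2 and Myl2, were all tested, and their summed level was 51070 to 54790 CPM (counts scaled to a common library total) in the libraries labelled mutant and 45620 to 50970 CPM in the controls. The sum hides different directions. For 7 of the 15 markers both libraries labelled mutant lay outside the control range, and among these only Myl2 lay below it. Actc1, the marker of highest control CPM, averaged 11150 CPM in the libraries labelled mutant and 11450 CPM in the controls, and the groups overlapped. Tnnt2 averaged 4959 CPM in the libraries labelled mutant, both above every control, and 3767 CPM in the controls. Myl2 averaged 5993 CPM in the libraries labelled mutant, both below every control, and 9009 CPM in the controls. Control replicate 5 stood apart from the other controls by chi-square per degree of freedom between replicates, where 1 marks sampling noise alone. This measure reached 33.6 for pairs of controls that include control replicate 5 and at most 17.4 among the other 4 controls. The 2 libraries labelled mutant also differed from each other, at 27, which was above every pair of those other 4 controls. Control replicates 1 and 3 had 0.689 and 1.09 CPM of Xist, the RNA that silences an X chromosome, while the other 5 libraries had 311 to 509 CPM. The labels name no litter or batch, and p-values below therefore reflect only how much these particular samples vary.

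Both ligand genes had lower counts in the mutant-labelled libraries. Nts had 37 and 50 counts in mutant replicates 1 and 2, against 212, 121, 136, 270 and 130 in control replicates 1 to 5. The highest library labelled mutant was below the lowest control, by a factor of 2.42 in CPM. In the libraries labelled mutant Nts averaged 2.01 ± 0.25 CPM (SD, n = 2), and in the controls 7.94 ± 3.38 CPM (SD, n = 5), with a log2 fold change of -1.97 (SE 0.40) from the edgeR model. Gal had 3 counts in each library labelled mutant, against 60, 27, 39, 16 and 80 in control replicates 1 to 5. The groups again did not overlap, and control replicate 4 was the lowest control. Gal averaged, in the libraries labelled mutant, 0.14 ± 0.012 CPM (SD, n = 2), and in the controls 1.94 ± 0.99 CPM (SD, n = 5). Pooled over libraries, the Gal level was 0.0698 of the control level, with an exact 95% interval of 0.0253 to 0.154 that covers counting error only.

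Among the receptors, Ntsr1 differed most. It had 4 and 1 counts in mutant replicates 1 and 2, against 128, 74, 59, 58 and 168 in control replicates 1 to 5. The lowest control was 13.5 times the higher library labelled mutant in CPM, so the groups lay far apart. Its mean in the libraries labelled mutant was 0.121 ± 0.109 CPM (SD, n = 2), and in the controls it was 4.28 ± 1.82 CPM (SD, n = 5). Pooled over libraries, the Ntsr1 level was 0.0265 of the control level, with an exact 95% counting interval of 0.00857 to 0.0623. The log2 fold change was -5.14 (SE 0.67), the 3rd lowest of 14691 genes tested, while Gal at -3.75 (SE 0.71) was the 14th lowest and Nts the 101st. In bulk tissue, fewer cells that express a gene and less RNA per cell cannot be told apart.

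Sort1 was the one abundant receptor gene and did not separate the groups. It had 1474 and 2773 counts in mutant replicates 1 and 2, against 1683, 1739, 1752, 1414 and 2041 in control replicates 1 to 5. In CPM, mutant replicate 1 at 73.0 lay within the control range of 70.0 to 83.0, and mutant replicate 2 at 121 lay above it. The log2 fold change of 0.33 (SE 0.16) therefore rested on mutant replicate 2: it was -0.075 without that library and 0.65 without mutant replicate 1. Sort1 exons share 338 bases with Gm12523, an antisense gene, and the library kit does not mark strand, so reads within those bases cannot be assigned to one or the other. The exons of Sort1 span 7569 bases in all.

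The remaining receptors were at the limit of detection. Galr2 had 1 and 8 counts in mutant replicates 1 and 2 and 2 to 3 counts in each control, so the groups overlapped, and its pooled ratio of 1.79 had a counting interval of 0.674 to 4.52. Ntsr2 had 1 and 2 counts in the libraries labelled mutant and 0 in every control. Galr3 had 0 counts in both libraries labelled mutant and 1 count in each of control replicates 1 and 5. Galr1, whose product is a main galanin receptor of the nervous system, had 0 counts in all 7 libraries. A count of 0 allows up to 3 counts, or 0.122 to 0.149 CPM in a single library and 0.0195 CPM over the 7 together. At counts this low, a fall or a small change between the groups in Ntsr2, Galr1, Galr2 or Galr3 could not have been seen.

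Of the 8 genes, 4 passed the filter on low counts (Nts, Ntsr1, Sort1 and Gal). Of these 4, edgeR's quasi-likelihood test, Benjamini-Hochberg adjusted over all genes tested, called 3 (Ntsr1, Gal and Nts), all lower in the libraries labelled mutant. It called 1.36% of all genes tested, and 0.899% as lower. Both libraries labelled mutant lay below every control for the same 3 genes and for 10.4% of all genes tested. Since this contrast chose the genes, nothing is read from these counts. Nts and Gal lost their call without control replicate 1, 2 or 3 or either library labelled mutant, and Ntsr1 without mutant replicate 2. Their log2 fold changes over those fits were -2.10 to -1.85 for Nts, -3.87 to -3.63 for Gal and -4.39 for Ntsr1. The authors' deposited table, which lists 668 of the 23337 symbols (2.86%), gives -5.14 for Ntsr1, -3.75 for Gal and -1.98 for Nts on the log2 scale. Sort1, Ntsr2, Galr1, Galr2 and Galr3 are not among the genes of the authors' deposited table.

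**Figure D1:**
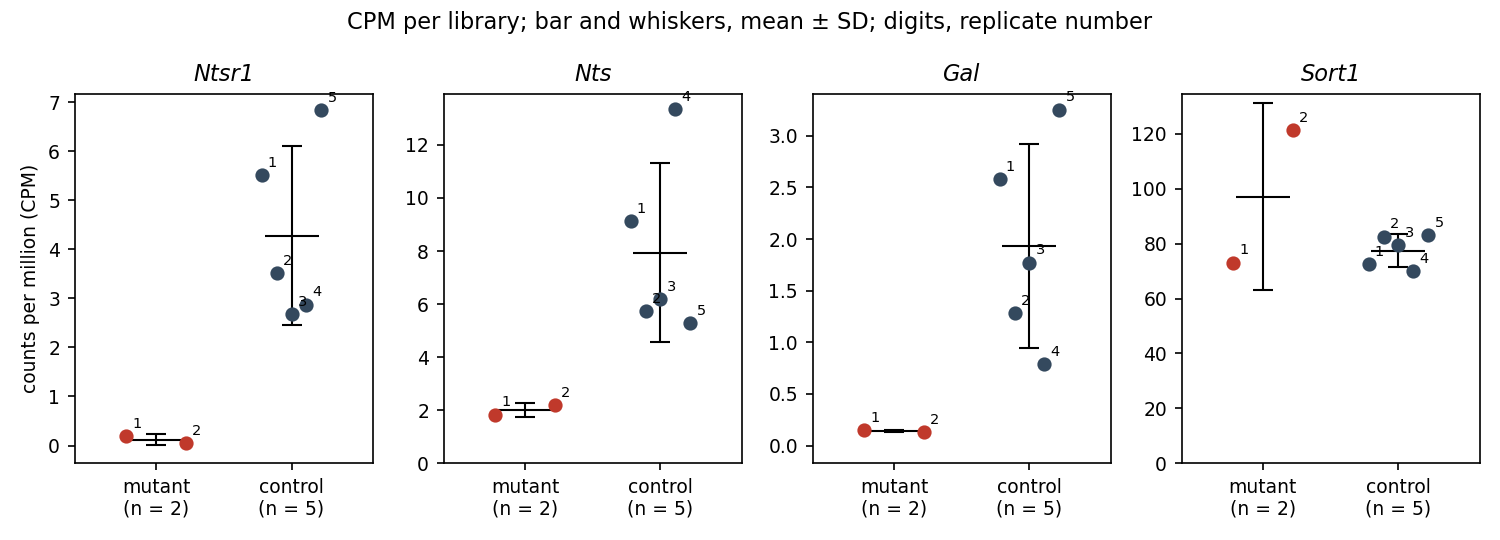
CPM of Ntsr1, Nts, Gal and Sort1 in the 2 libraries labelled mutant (red) and the 5 controls (dark), with the mean and SD as a bar and whiskers and the replicate number beside each point. For Ntsr1, Nts and Gal both red points lie below every dark one, while for Sort1 mutant replicate 1 lies among the controls at 73.0 CPM and mutant replicate 2 above them at 121 CPM.

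Levels of different genes were compared as CPM per kilobase of exon. In the libraries labelled mutant, Sort1 was at 12.8 ± 4.51, Nts at 1.61 ± 0.20, Gal at 0.178 ± 0.016 and Ntsr1 at 0.031 ± 0.028 CPM per kilobase (SD, n = 2). In the controls Sort1 was at 10.2 ± 0.79, Nts at 6.36 ± 2.71, Gal at 2.46 ± 1.26 and Ntsr1 at 1.09 ± 0.46 CPM per kilobase (SD, n = 5). In the controls the neighbours Sort1 and Nts overlapped, as did Gal and Ntsr1, while the lowest Nts library, at 4.24, was above the highest Gal library, at 4.13 CPM per kilobase. Galr2 followed at 0.081 ± 0.086 in the libraries labelled mutant and 0.048 ± 0.0098 CPM per kilobase in the controls. Among the neurotensin receptors, sortilin mRNA thus had the highest level per length in both groups.

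**Figure D2:**
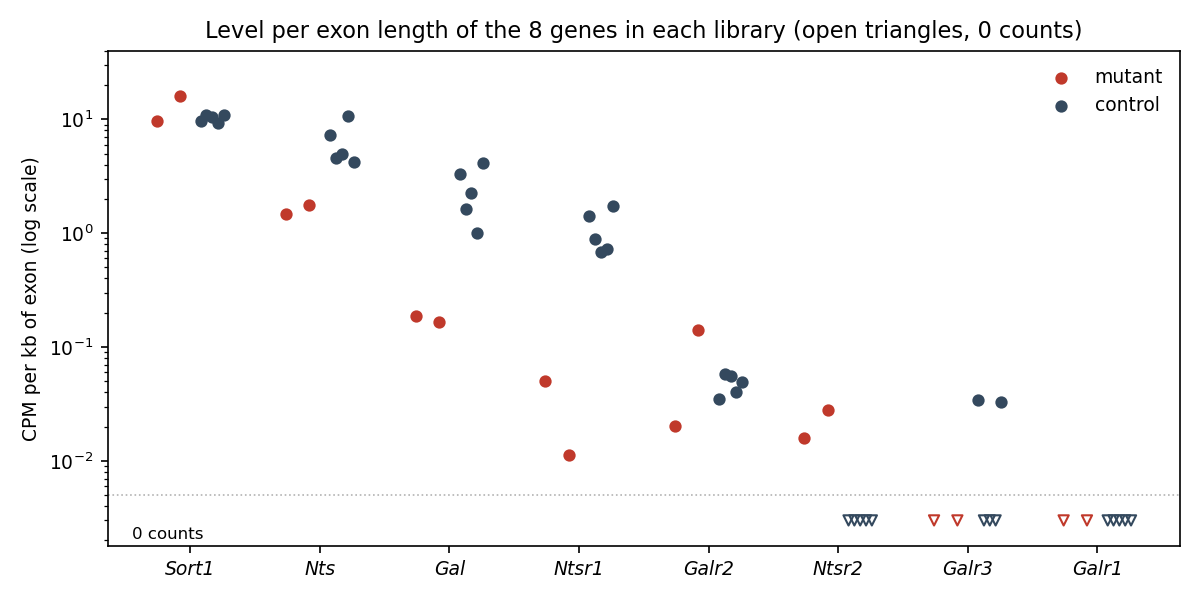
Level of each of the 8 genes in each library as CPM per kilobase of exon, on a log axis, with libraries labelled mutant (red) left of controls (dark); open triangles under the dotted line are libraries with 0 counts. Sort1, Nts, Gal and Ntsr1 run from 10.2 down to 1.09 CPM per kilobase in the control means, and the other 4 genes hold 0 to 8 counts in a library.

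The 3 genes that differed are on separate chromosomes of the mm10 (GRCm38) assembly. Ntsr1 lies on the plus strand of chromosome 2 at 180499976 to 180544980, Nts on the minus strand of chromosome 10 at 102481756 to 102490486, and Gal on the minus strand of chromosome 19 at 3409915 to 3414544. Their nearest measured neighbours gave no call in the edgeR quasi-likelihood test. Ogfr, 44265 bases from Ntsr1, had a log2 fold change of -0.21 (SE 0.11, adjusted p = 0.344), and Slco4a1 on the other side was too low to test. Beside Gal, Cpt1a, a carnitine palmitoyltransferase, was at 0.26 (SE 0.13, adjusted p = 0.327) and Ppp6r3, a phosphatase subunit, at 0.14 (SE 0.08, adjusted p = 0.414). Beside Nts, Rassf9 was at -0.64 (SE 0.41, adjusted p = 0.448) and Mgat4c was too low to test. GENCODE M21 lists no gene that overlaps Ntsr1, Nts or Gal.

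Promoter windows of these 3 genes, from 250 bases before to 50 after the RefSeq start site (GRCm38.p6), are shown because the floxed gene encodes a T-box factor. Of the 8 genes, 5 had a window (Ntsr1, Nts, Gal, Ntsr2 and Galr2). Capitals mark AGGTGT, the core of the T-box binding site, searched on both strands. The windows are chr2:180499726-180500025 on the plus strand, chr10:102490369-102490668 on the minus strand and chr19:3414495-3414794 on the minus strand, each written 5′ to 3′ along its gene.
Ntsr1: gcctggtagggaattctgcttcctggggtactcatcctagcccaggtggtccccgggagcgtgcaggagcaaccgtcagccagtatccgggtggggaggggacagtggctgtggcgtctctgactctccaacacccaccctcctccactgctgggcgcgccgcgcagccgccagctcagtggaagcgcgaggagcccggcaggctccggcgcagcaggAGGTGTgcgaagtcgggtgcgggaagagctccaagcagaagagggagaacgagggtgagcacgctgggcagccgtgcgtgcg
Nts: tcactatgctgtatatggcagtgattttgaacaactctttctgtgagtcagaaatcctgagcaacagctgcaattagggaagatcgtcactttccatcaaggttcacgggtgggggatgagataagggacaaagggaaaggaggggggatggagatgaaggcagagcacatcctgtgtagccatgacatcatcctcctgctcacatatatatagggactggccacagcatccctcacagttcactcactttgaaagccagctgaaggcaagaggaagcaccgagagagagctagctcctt
Gal: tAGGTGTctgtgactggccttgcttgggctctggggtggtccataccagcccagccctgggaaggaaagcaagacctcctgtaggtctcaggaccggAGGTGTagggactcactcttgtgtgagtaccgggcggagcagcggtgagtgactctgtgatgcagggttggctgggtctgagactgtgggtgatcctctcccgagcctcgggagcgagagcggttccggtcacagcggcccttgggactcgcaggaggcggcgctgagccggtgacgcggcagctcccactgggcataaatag

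Counted from 1 at the first base of each window, Ntsr1 held AGGTGT at bases 219 to 224 and Gal held it at bases 2 to 7 and 98 to 103. The Nts, Ntsr2 and Galr2 windows held no match. Of 32851 promoter windows of this length, 13.7% held AGGTGT on either strand. The longer form AGGTGTGA, which contains the core, was in 1.28% of windows and in none of the 5. The Nts window held the AP-1 letters TGANTCA at bases 44 to 50, as did 7.81% of windows, while none of the 5 held the exact letters of the cyclic AMP response element TGACGTCA or TATAAA, found in 1.79% and 13.6% of windows. Variants of these letters were not searched, and the Nts window holds the similar TGACATCA and TATATA. These matches describe letters in a window and are not evidence of binding.

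Among the controls, a measure that the choice of genes did not use, the 3 low genes did not vary alike. Control replicates 5 and 1 were the highest for both Ntsr1, at 6.83 and 5.51 CPM, and Gal, at 3.25 and 2.58 CPM. For Nts, control replicate 4 was the highest at 13.4 CPM and control replicate 5 the lowest at 5.29 CPM. The highest control was 2.55 times the lowest for Ntsr1, 2.53 times for Nts, 4.11 times for Gal and 1.19 times for Sort1. The count ratio of Nts to Ntsr1 was therefore 0.774 in control replicate 5 and 4.66 in control replicate 4. It was 9.25 and 50.0 in mutant replicates 1 and 2, the second of which rests on 1 count of Ntsr1. With 5 controls no correlation is given, and the 7 libraries fall into separate groups.

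**Figure D3:**
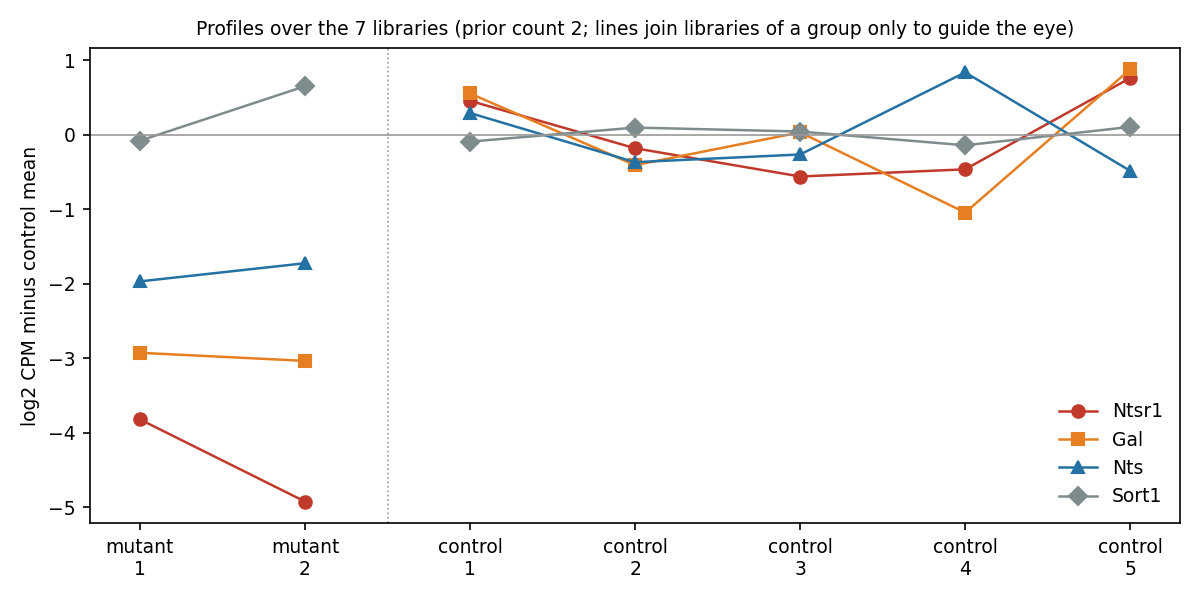
log2 CPM (prior count 2) of Ntsr1, Gal, Nts and Sort1 in each library, minus the mean of the controls; the lines only guide the eye. Ntsr1 and Gal are highest in control replicates 5 and 1, Nts is highest in control replicate 4, and in the libraries labelled mutant the order from low to high is Ntsr1, Gal, Nts, Sort1.

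The likeness of 2 genes was measured as the root mean square difference of their log2 CPM, each centred on its control mean, over the 7 libraries. Among 13386 genes tested with a mean of at least 1 CPM, the 4 nearest to Ntsr1 were Sln (0.59), which encodes the calcium pump inhibitor sarcolipin and is an atrial marker, Dpt (0.73), the matrix protein dermatopontin, Car3 (0.80), a carbonic anhydrase, and Gal itself (0.86). Sln had 17 and 5 counts in the libraries labelled mutant and 70 to 324 in the controls. The 4 nearest to Gal were Rd3 (0.40), Gm1078 (0.47), Cthrc1 (0.49), a secreted matrix protein, and Btn1a1 (0.50), a butyrophilin. Ntsr1 was only 48th nearest to Gal, at 0.86. Rd3 had 13 and 19 counts in the libraries labelled mutant and 49 to 248 in the controls, with its lowest control again in replicate 4. The 4 nearest to Nts, added after its values were seen, were Meox1 (0.39), a homeobox factor of mesoderm that is also among the cushion mesenchyme markers below, Tmem88b (0.41), Lypd6b (0.41) and Moxd1 (0.43). Ntsr1, at 1.56, was only the 13311th nearest of these genes to Nts, while Nts was the 56th nearest to Ntsr1 at the same distance. The distance depends on how far a gene fell as well as on the shape of its profile, so a late rank does not mean opposite profiles. The distances include the libraries labelled mutant, whose low values chose Ntsr1, Gal and Nts, so these likenesses are no independent result.

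The machinery around the peptides was measured through 8 lists that hold 115 tested genes apart from the 8 family genes. By edgeR's quasi-likelihood test at an adjusted p of 0.05, 0 of the 115 passed, beside 1.36% of all genes. At an unadjusted p under 0.05 there were 24 of 115 (20.9%), beside 17.6% of all genes. DESeq2 called 7 of the 109 to which it gave an adjusted p (6.42%), beside 5.46% of all genes. Both shares were near those of all genes. The 7, named below after their values were seen, were Kcnj5, Oprk1, Calca and Aplnr, fitted below 0, and Prkca, Crhr2 and Sorl1, fitted above 0. The log2 fold change was below 0 for 62 of the 115. Over all genes tested its median was -0.008.

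For the Gq branch used by NTSR1 and GALR2, 0 of 20 tested genes passed, and the median log2 fold change was 0.14. Their summed level was 575 to 649 CPM in the libraries labelled mutant and 517 to 558 CPM in the controls, so the groups did not overlap. At edgeR's unadjusted p under 0.05 there were 7 of the 20, beside 17.6% of all genes, and 8 of the 20 were fitted below 0. In the libraries labelled mutant Gna11, a Gq-class alpha subunit, was at 100.5 ± 4.47 CPM (SD, n = 2), against 91.3 ± 4.07 CPM (SD, n = 5) in the controls. The protein kinase C gene Prkcd was at 52.9 ± 1.26 CPM in the libraries labelled mutant and 46.4 ± 1.31 CPM in the controls. Prkca, another protein kinase C gene, had 1456 and 1848 counts in the libraries labelled mutant and 1121 to 1445 in the controls, at a log2 fold change of 0.42 (SE 0.10, edgeR adjusted p = 0.0773), and did not pass. Of the Gi, adenylyl cyclase and GIRK channel branch used by galanin receptors, 0 of 20 passed, with a median of 0.07. On the log2 scale Prkar1a, a regulatory subunit of protein kinase A, was fitted at 0.04 (SE 0.10) and Gnai2, a Gi alpha subunit, at -0.0091 (SE 0.10), neither past the test. Kcnj5, a GIRK channel subunit named here after its values were seen, had 675 and 1075 counts in the libraries labelled mutant and 1015 to 2167 in the controls. In CPM Kcnj5 averaged 40.2 in the libraries labelled mutant, both below every control, and 78.1 in the controls. At a log2 fold change of -0.96 (SE 0.23, edgeR adjusted p = 0.0767) it did not pass.

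Genes of peptide maturation were present at uneven levels. Of 13 tested, 0 passed, with a median log2 fold change of 0.07. In the libraries labelled mutant Pam, which amidates peptides such as galanin, was at 1226 ± 361 CPM (SD, n = 2), against 1064 ± 194 CPM (SD, n = 5) in the controls. The carboxypeptidase gene Cpe was at 157 ± 38.9 CPM in the libraries labelled mutant and 149 ± 28.4 CPM in the controls. The prohormone convertase genes Pcsk1 and Pcsk2, which cut many neuropeptide precursors in endocrine cells, were near 0: Pcsk1 had 3 and 1 counts in the libraries labelled mutant and 0 to 4 in the controls, and Pcsk2 had 0 in both and 0 to 2 in the controls. Of 12 tested peptidases 0 passed, with a median of -0.07. Nln, encoding neurolysin, which cleaves neurotensin, was at 58.6 ± 1.17 CPM in the libraries labelled mutant and 54.8 ± 1.80 CPM in the controls, with a log2 fold change of 0.10 (SE 0.08). The most abundant peptidases per length, Ece1 and Prep, were fitted at 0.38 (SE 0.28) and -0.07 (SE 0.09) on the log2 scale.

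Relatives and partners of sortilin gave 0 calls among 16 tested genes, with a median log2 fold change of -0.05. In the libraries labelled mutant Grn, encoding progranulin, a sortilin ligand, was at 206 ± 31.7 CPM (SD, n = 2), against 182 ± 35.6 CPM (SD, n = 5) in the controls. The retromer gene Vps26a was at 83.1 ± 4.36 CPM in the libraries labelled mutant and 80.2 ± 1.68 CPM in the controls. Sorl1, a sortilin relative named after its values were seen, had 195 and 534 counts in mutant replicates 1 and 2 and 169 to 258 in the controls, so, like Sort1, it was high in mutant replicate 2 alone. Of 7 tested receptor kinase and arrestin genes 0 passed, with a median of 0.0044. Adrbk1 and Grk6, kinases that phosphorylate active receptors, were fitted at 0.0044 (SE 0.08) and -0.17 (SE 0.08) on the log2 scale.

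Other neuropeptide systems were compared to place the values of Nts, Gal and Ntsr1. Of 36 other neuropeptide genes in the table, 11 were tested, 0 passed, and the median log2 fold change was -0.38. The 2 most abundant per length were Apln, encoding apelin, and Npb, encoding neuropeptide B. In the libraries labelled mutant Apln was at 24.3 ± 0.53 CPM (SD, n = 2), against 26.0 ± 9.32 CPM (SD, n = 5) in the controls, and Npb was at 2.77 ± 0.35 CPM, against 2.46 ± 0.38 CPM. Galp, which encodes galanin-like peptide, a further ligand of galanin receptors, had 0 counts in every library. Of 43 receptor genes 16 were tested, 0 passed, 14 were fitted below 0, and the median log2 fold change was -0.30. Ramp2 and Calcrl, which together form an adrenomedullin receptor, were fitted at -0.12 (SE 0.17) and -0.24 (SE 0.16) on the log2 scale. Oprk1, the kappa opioid receptor, and Calca, which encodes calcitonin gene-related peptide, were named after their values were seen. Oprk1 had 11 and 9 counts in the libraries labelled mutant and 14 to 153 in the controls, at a log2 fold change of -2.86 (SE 0.79), and Calca had 6 and 3 counts in the libraries labelled mutant and 12 to 60 in the controls, at -2.57 (SE 0.75). With edgeR adjusted p of 0.111 and 0.119 neither passed, although both libraries labelled mutant lay below the controls for each. Aplnr, the apelin receptor, had 345 and 344 counts in the libraries labelled mutant and 442 to 999 in the controls, at -1.0 (SE 0.27, edgeR adjusted p = 0.100), and did not pass. In the opposite direction, Crhr2, a receptor of corticotropin-releasing hormone and urocortins, was at 12.2 ± 0.83 CPM (SD, n = 2) in libraries labelled mutant, against 8.01 ± 1.25 CPM (SD, n = 5) in the controls. Its CPM was higher in both libraries labelled mutant than in every control, at a log2 fold change of 0.61 (SE 0.16, edgeR adjusted p = 0.0889), and it did not pass.

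**Figure D4:**
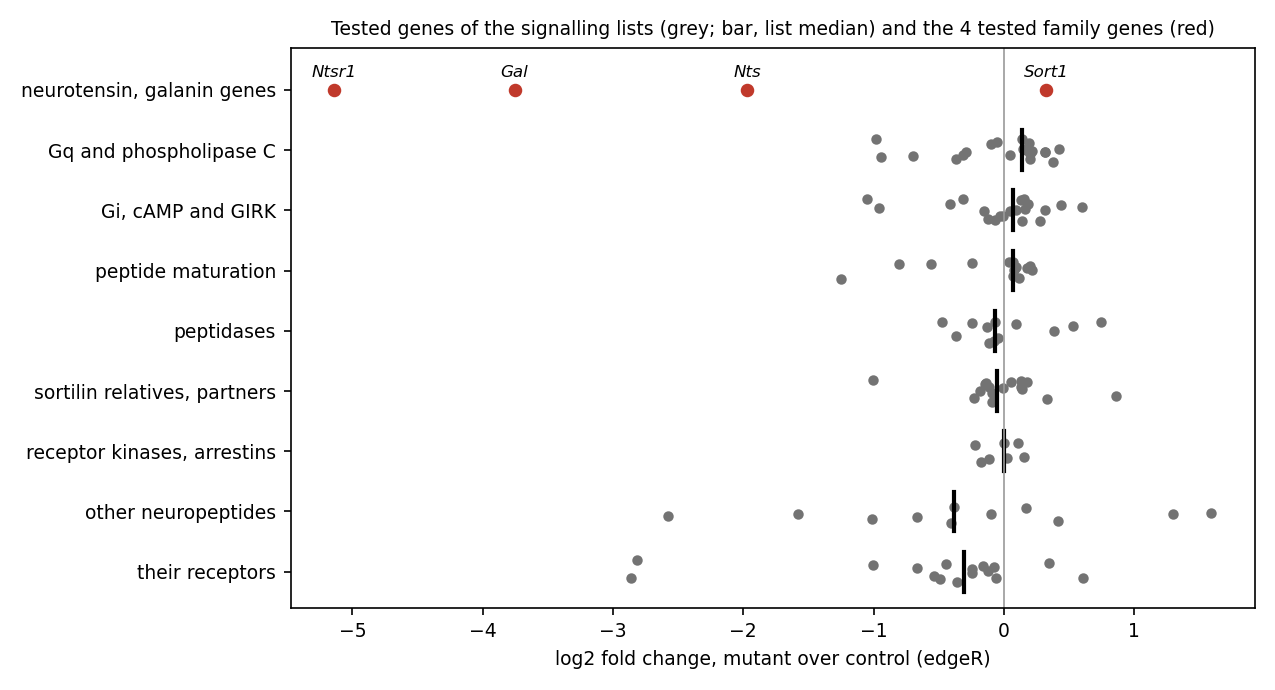
edgeR log2 fold change (mutant over control) of each tested gene in the 8 signalling lists (grey, with a black bar at the list median) and of Ntsr1, Gal, Nts and Sort1 (red, top row); the vertical scatter of grey points has no meaning. The list medians run from -0.38 to 0.14, and Ntsr1 at -5.14 and Gal at -3.75 lie left of every grey point.

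Among 9 lists of cell type markers, 2 had called members and summed levels that were lower in both libraries labelled mutant than in every control, those of cushion mesenchyme with fibroblasts and of macrophages. Calls are to be read beside the 0.899% of all genes that edgeR called lower. The lists were chosen with earlier results of these data known. Their counts of called genes are therefore a description and no independent evidence about a cell type. Of 16 cushion mesenchyme and fibroblast markers, 8 were called lower and 0 higher, and their summed level was 2011 to 2331 CPM in the libraries labelled mutant and 3109 to 5145 CPM in the controls. The genes of highest control CPM, not scaled for length, were the collagens Col3a1, which was called at a log2 fold change of -0.99 (SE 0.19, edgeR adjusted p = 0.0328), and Col1a2, which was not, at -0.95 (SE 0.20, edgeR adjusted p = 0.0512). Col1a1, which is above Col1a2 per length and was named after its values were seen, was called at -1.36 (SE 0.22, edgeR adjusted p = 0.0202). Of 12 atrial markers, 7 were called lower and 0 higher, while their sum, mostly Myl4, overlapped between the groups, at 3320 to 3580 CPM in the libraries labelled mutant and 3268 to 5418 CPM in the controls. Of 12 macrophage markers, 3 were called lower and 0 higher, with sums of 137 to 201 CPM in the libraries labelled mutant and 212 to 295 CPM in the controls. Of 14 tested trabecular and conduction markers 2 were called lower, Nppb and Gja5, and the sums were 1994 to 2204 CPM in the libraries labelled mutant and 1972 to 3186 CPM in the controls. Of 11 epicardial markers 1, Krt19, was called lower, with sums of 336 to 469 CPM in the libraries labelled mutant and 430 to 635 CPM in the controls.

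Of 20 tested neuron and neural crest markers 0 were called, and their sum was 231 to 243 CPM in the libraries labelled mutant and 149 to 229 CPM in the controls. That sum is mostly Ddc and Hand2, which are not specific to neurons. Of the 20 tested markers, 13 were fitted below 0, with a median log2 fold change of -0.26. Sox10, named after its values were seen, had 1 and 0 counts in mutant replicates 1 and 2 and 2 to 13 in the controls. Slc18a3, the vesicular acetylcholine transporter, had 0 counts in every library, Chat had 0 in both libraries labelled mutant and at most 1 in a control, and the pan-neuronal Tubb3 had 71 and 73 counts in the libraries labelled mutant and 60 to 113 in the controls. Endothelial and erythroid lists had 0 calls among 12 and 10 tested genes, with overlapping sums. The endothelial sum was 925 to 1361 CPM in the libraries labelled mutant and 988 to 1442 CPM in the controls, and the erythroid sum 5910 to 6271 CPM in the libraries labelled mutant and 4564 to 10030 CPM in the controls. Of the 15 cardiomyocyte markers 0 were called, and 5 were fitted below 0. At edgeR's unadjusted p under 0.05 there were 8 of the 15, beside 17.6% of all genes. Across the controls, the summed trabecular list and the summed endothelial list each had the same order of libraries as Gal, with control replicate 5 highest and 4 lowest. The trabecular sum is mostly Nppa, which is also among the cardiomyocyte markers. In that sum control replicates 1 and 3 were almost tied, at 2528 and 2527 CPM. The neuron and neural crest list had the order of Ntsr1, and none of the 9 marker lists had that of Nts. These orders were looked at after the values were known, and the part of any cell type in the lower counts of Ntsr1, Gal and Nts was not tested.

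**Figure D5:**
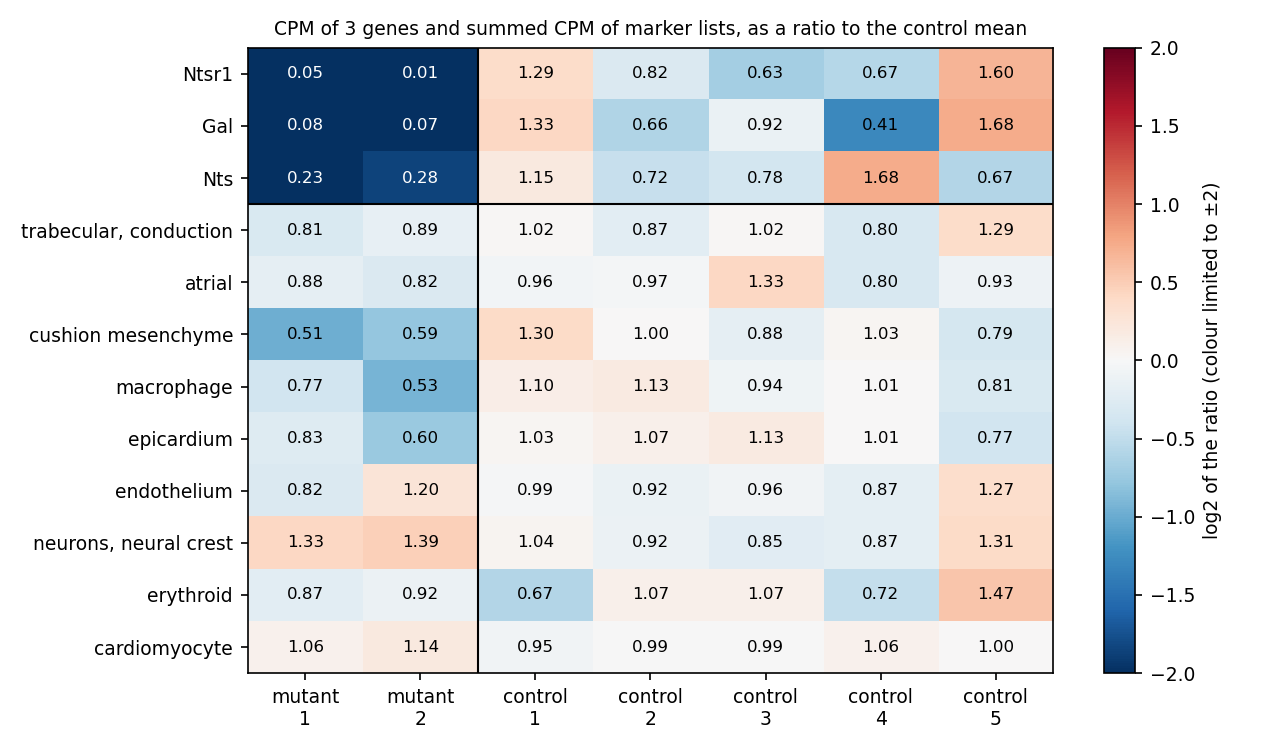
CPM of Ntsr1, Gal and Nts (top 3 rows) and summed CPM of 9 marker lists, each as a ratio to its control mean, in the 2 libraries labelled mutant and the 5 controls; blue is below and red above the control mean. The summed lists stay between 0.51 and 1.47 of their control mean, while Ntsr1 and Gal are at most 0.08 of theirs in the libraries labelled mutant. Sums and single genes are not alike, and single markers, named after their values were seen, went further either way. In the libraries labelled mutant Sln and Dpt averaged 0.055 and 0.081 of their control means, and Ddc had a log2 fold change of 1.02.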

How the data were processed

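The authors deposited raw counts, 1 whole number for each gene symbol in each library, with no normalization. The submitters' processing notes name mm10 as the build and, without roles, limma 3.30.13, edgeR 3.16.5, R 3.3.2, TopHat2 2.1.1 and featureCounts. Which annotation and strand setting were used is not given in the sources used. A second deposited table gives the authors' log2 fold change, p-value and false discovery rate per gene, with every rate at most 0.05 and no test named per the file headers; its log base was read from its closeness to values computed here (median difference 0.0054).

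From these counts, edgeR 4.0.16 (R 4.3.3) was run as follows: filterByExpr (minimum count 10, minimum total 15) kept 14691 genes, TMM factors were 0.988 to 1.009, and glmQLFit with glmQLFTest (robust, genotype only) was adjusted by Benjamini-Hochberg over all genes tested, threshold 0.05. The SE is the log2 fold change over the square root of F. Exon lengths are unions over GENCODE M21 transcripts (22874 of 23337 symbols matched). Intervals and floors of 3 counts cover counting error only. The fit was tested on simulated data. The alternatives tried were no filter, DESeq2 1.42.0, DESeq2's size factors within edgeR, each library left out and the replicate number as a block; leaving out the controls low in Xist, or control replicate 5 with mutant replicate 2, was added after seeing the data.

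The members and lists were chosen with earlier results of these data known. Named genes were the 8 members, and the called or else the 2 most abundant genes per length of each signalling list. Up to 2 genes of highest control CPM per marker list were also named, with the 4 genes nearest to Ntsr1 and to Gal. Tnnt2, Gja5, Tubb3, Chat, Slc18a3, Nln, Pcsk1, Pcsk2 and Galp were named outside these rules, when results of these data were known. Neighbouring genes were named by position. Other signalling and marker genes are said to be chosen after their values were seen. Python 3.11.15 with matplotlib 3.10.9 drew the plots.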

Additional observations from a re-analysis of the deposited data

Results flagged for a closer look

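The summed level of the 12 endothelial markers in control replicate 5, 1442 CPM, lay far from the other controls, at 988 to 1118 CPM. Its gap to the next control was 0.713 of the range of the 5 controls, just above the critical value of 0.71. It was the single such case among 23 sets of control values (members and lists), where chance alone gives about 1 in 20.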

How the results depend on the processing

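The log2 fold changes of Ntsr1, Gal and Nts were negative in every alternative run. With 1 library left out they ran from -6.45 to -4.39 for Ntsr1, -3.94 to -3.47 for Gal and -2.10 to -1.70 for Nts. Sort1 ran from -0.075 to 0.65: its sign turned without mutant replicate 2, and it was called without mutant replicate 1. Without the controls low in Xist, Gal (-3.63) and Nts (-2.0) were not called. Without control replicate 5 and mutant replicate 2, Gal (-3.38) and Nts (-2.22) were not called, Ntsr1 (-4.15) stayed called and Sort1 was at -0.0505. The cause was not tested.

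Genes called numbered 200, against 786 with DESeq2, 66 without the controls low in Xist, 52 without control replicate 5 and mutant replicate 2, and 12 to 275 with 1 library left out. Of the signalling genes 0 were called, against 7 with DESeq2 (Aplnr, Calca, Crhr2, Kcnj5, Oprk1, Prkca and Sorl1), 1 without the controls low in Xist, and 0 to 2 with 1 library left out. With the replicate block, 811 genes and 11 signalling genes were called, and Ntsr1, Gal and Nts stayed called. Control replicates 3, 4 and 5 have no mutant-labelled library of the same number. That fit therefore compared the groups within replicates 1 and 2 only, and its calls are no check on all the libraries. The replicate numbers are not shown to pair the samples: deviations from the group means correlated at 0.078 and 0.012 for the 2 same-numbered pairs. The ratios of highest to lowest control kept within 1.5 times on raw counts, and with a prior count of 0.5 the nearest 4 genes shared 3 with those given for Ntsr1, 4 for Gal and 3 for Nts. Ntsr2, Galr1, Galr2 and Galr3 had 8 counts or fewer in every library.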
